A study of Mus musculus with 5 samples.

Results

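A set of 10 genes that encode secreted factors of the WNT pathway were followed through 5 single-cell libraries of mouse colon. They were the WNT ligands Wnt5a, Wnt4, Wnt2b, Wnt6 and Wnt11, the R-spondins Rspo1 and Rspo3, and the secreted frizzled-related proteins Sfrp1, Sfrp2 and Sfrp4. These are 10 of the 19223 to 21073 genes listed per library. All 10 were listed in 3 libraries, Sfrp4 was not among the listed genes of 1 early library (day 1, replicate 1), and Rspo1 was not among those of the day 3 library. The counts were unique molecular identifier (UMI) counts, so that each copy of an amplified transcript end was counted once, made on the inDrop droplet platform. Of the libraries, 4 came from colon tumors of wild-type (WT) mice. These tumors were induced with azoxymethane, a mutagen, and dextran sodium sulfate, an irritant of the colon lining (AOM/DSS), and were then treated with 5FU, which blocks thymidylate synthesis, and Irinotecan, a topoisomerase inhibitor. Of these, 2 were taken on day 1 after treatment (early), 1 on day 3 and 1 on day 6 (late). The fifth library, titled as WT fibroblasts, came from untreated WT colon dissociated to enrich the stroma, and is called the normal stroma library here. In the tumor dissociation the epithelial fraction retained on a filter was kept and the flow-through was discarded. The ages of the mice and the number of mice behind each library were not given per library, and the tissue was collected after the last of the chemotherapy cycles. No untreated tumor was among these libraries, so all values in tumors are values after chemotherapy.

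WNT ligands are lipid-modified proteins that act over short distances on frizzled receptors of neighboring cells. In the colon, ligands and R-spondins made below the epithelium support the stem cells at the crypt base, with R-spondins acting through LGR receptors to keep frizzled proteins on the cell surface. Secreted frizzled-related proteins bind WNT ligands outside the cell and are mostly known as inhibitors, and Foxl1-positive stromal cells named telocytes are a known source of WNT ligands next to the crypts.

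In the mouse genome build used for these files (GRCm38), Wnt6 spans chr1:74771892-74785322 on the plus strand, and Wnt10a, a WNT ligand outside the set, starts 6193 bases downstream on the same strand (chr1:74791516-74804179) with 0 annotated genes between them. Wnt4 spans chr4:137277489-137299726 on the plus strand, Wnt5a spans chr14:28504750-28527448 on the plus strand, Sfrp1 spans chr8:23411502-23449632 on the plus strand, and Rspo3 spans chr10:29452416-29535867 on the minus strand. An annotated antisense gene overlaps Wnt5a (Gm2670), Wnt6 (Gm29539), Rspo1 (Gm12930), Rspo3 (Gm48159) and Sfrp2 (Gm26771), and none overlaps Wnt4, Sfrp1 or Sfrp4. Whether the counting used strand is not given in the sources used here, so reads of these pairs may not have been told apart. The promoter windows (250 bases before to 50 after the start, RefSeq, GRCm38.p6, plus strand) of Wnt6 and Wnt4 are shown because in the early tumor libraries most Wnt6 UMIs lay in a cluster that met no marker list and most Wnt4 UMIs in squamous-like cells. Capitals mark the GC box GGGCGG, searched on both strands, where neighboring matches may overlap.

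Wnt6, chr1:74771642-74771941: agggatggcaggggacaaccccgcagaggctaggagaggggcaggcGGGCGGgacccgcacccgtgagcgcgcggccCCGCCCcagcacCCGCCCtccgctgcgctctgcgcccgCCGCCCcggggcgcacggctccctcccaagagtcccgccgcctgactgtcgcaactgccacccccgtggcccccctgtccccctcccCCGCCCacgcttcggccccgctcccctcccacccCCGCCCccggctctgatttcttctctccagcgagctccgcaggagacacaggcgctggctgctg
Wnt4, chr4:137277385-137277684: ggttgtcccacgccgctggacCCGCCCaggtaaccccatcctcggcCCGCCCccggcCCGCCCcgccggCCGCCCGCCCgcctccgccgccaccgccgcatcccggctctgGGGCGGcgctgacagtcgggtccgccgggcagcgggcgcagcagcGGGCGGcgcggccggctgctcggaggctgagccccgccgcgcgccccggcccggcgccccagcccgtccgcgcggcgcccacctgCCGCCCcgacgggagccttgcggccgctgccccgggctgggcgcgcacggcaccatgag

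The Wnt6 window held 6 GC boxes and the Wnt4 window held 8. A GC box was found in 35.7% of 32851 promoter windows of the same length. The TCF/LEF core CTTTGA or CTTTGT, a short sequence bound by the transcription factors of the WNT pathway, was found in neither window and in 31.2% of all windows. TATAAA was in neither window and in 13.6% of all, and the AP-1 motif TGANTCA was in neither window and in 7.81% of all. These matches describe letters in the sequence and were not compared with any binding data.

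The 4 tumor libraries held 748 and 2403 cells (early), 1419 cells (day 3) and 2826 cells (day 6) after cells with fewer than 500 genes or more than 15% mitochondrial counts were removed, and the normal stroma library held 1095 cells. The files summed to 5132360 to 16904947 UMIs per library, and the kept cells had medians of 2903 to 3601 UMIs. Between 34 and 106 cell barcodes of each library also occurred in another library. Cells were clustered without the 10 genes, and clusters were named from marker lists. The fibroblast-like cells of the tumors, called cancer-associated fibroblast (CAF)-like here, numbered 14 and 39 in the early libraries, 30 on day 3 and 56 on day 6. Defining fibroblast markers were high in them, with Dcn at 7510 and 6959 CPM (UMIs of the gene per 1000000 UMIs of the summed cells) early, 2876 on day 3 and 7721 on day 6. Markers of other cells were present in the same sums: the basal keratin Krt5 stood at 122 and 63.1 CPM early and at 901 and 673 CPM on days 3 and 6, and the hemoglobin gene Hba-a1 at 346 and 3942 CPM early and at 18.4 and 49.4 CPM late. The part of these other markers in the values below was not tested. One tumor cluster of 559 cells, led by Mt4, Spock2 and the WNT inhibitor Wif1, met no marker list and is called the unnamed cluster. It held 155 and 365 cells early, 23 on day 3 and 16 on day 6.

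In the normal stroma library, the label of fibroblasts fitted part of the cells. Of the 1095 cells, 266 lay in fibroblast-like clusters, and 98, 74 and 26 cells were like telocytes, myofibroblasts and pericytes, while 328 were columnar epithelial cells. A count of the members highest in a mesenchymal type gave 7 of 10 in the normal stroma library, 5 of them with at least 10 UMIs in that type. In the tumors the count took named types with at least 10 cells, so the unnamed cluster was left out. It was 3 of 8 and 3 of 9 members with a UMI in these types in the early libraries. On day 3 it was 4 of 8 and on day 6 it was 7 of 9. The day 6 count included Wnt6 on 1 CAF-like UMI (6.18 CPM), while the unnamed cluster held 14 Wnt6 UMIs (80.1 CPM). The same count over all genes was not made. With at least 10 UMIs required, the tumor counts were 2, 1, 1 and 3 members. These were Wnt5a and Sfrp1 in day 1 replicate 1, Wnt5a in day 1 replicate 2, Sfrp1 on day 3, and Wnt5a, Wnt4 and Sfrp1 on day 6.

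**Figure D1:**
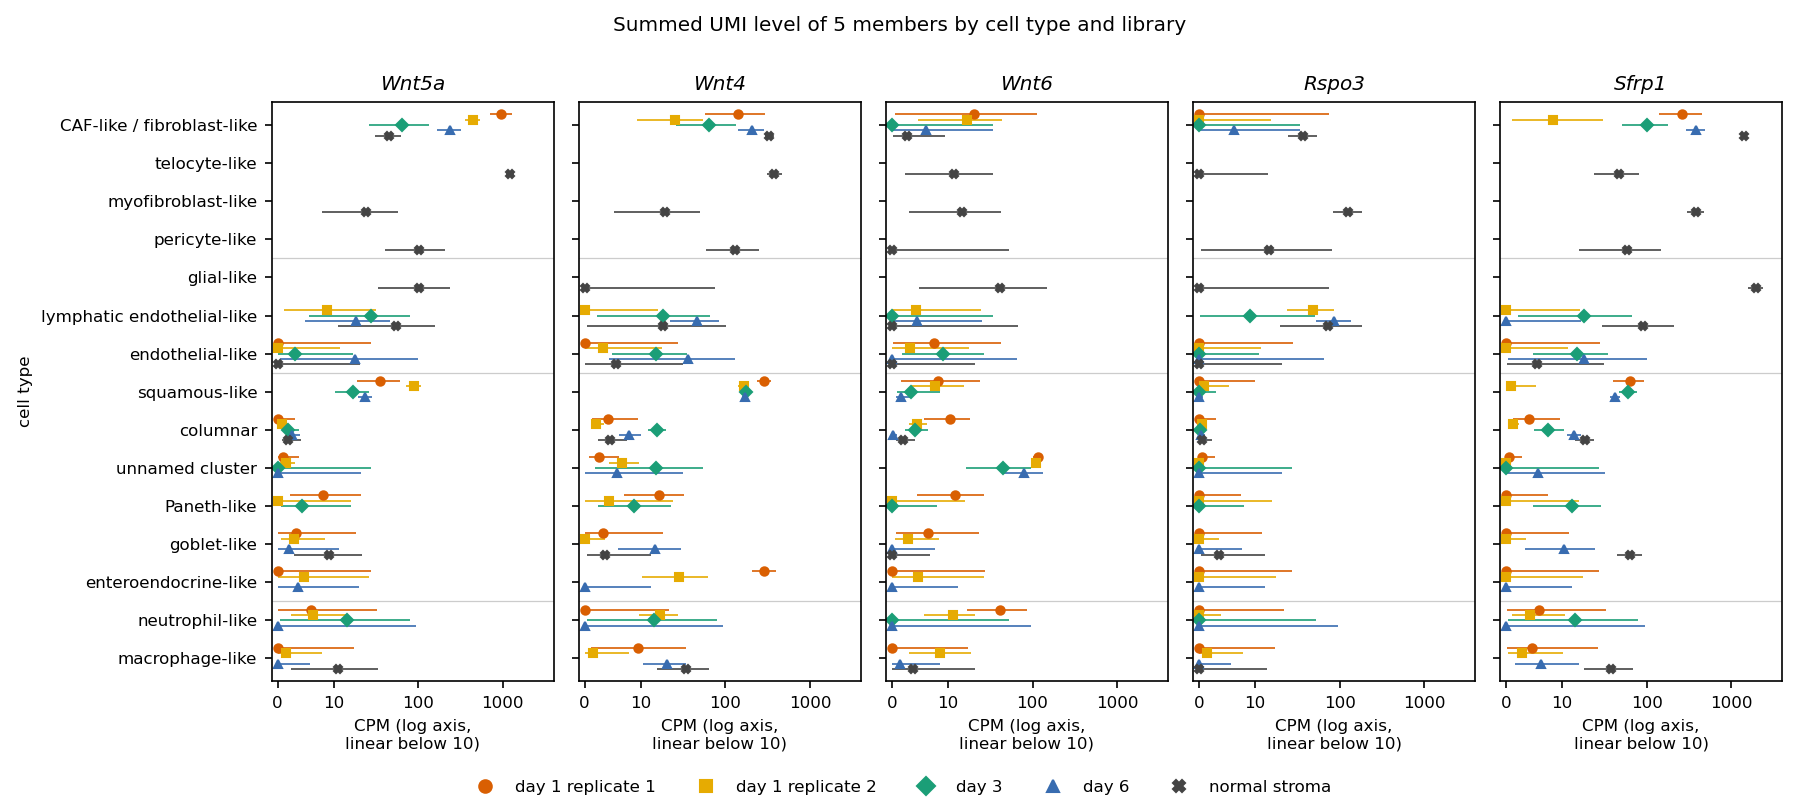
Level of Wnt5a, Wnt4, Wnt6, Rspo3 and Sfrp1 (CPM, logarithmic axis that is linear below 10) in each cell type with at least 10 cells, by library; points are summed counts of 1 library and bars are exact 95% Poisson intervals. Wnt5a was highest in CAF-like cells of each tumor library and in telocyte-like cells of normal stroma. On day 3 the CAF-like interval overlapped those of lymphatic endothelial-like and squamous-like cells. Wnt6 was highest in the unnamed cluster, and Rspo3 in lymphatic endothelial-like cells of the tumors.

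Wnt5a, which signals mostly without beta-catenin, was counted in the tumors mainly in CAF-like and squamous-like cells and in normal stroma mainly in telocyte-like cells. In CAF-like cells it was counted 47 times in day 1 replicate 1, which is 957 CPM (exact 95% Poisson interval 703 to 1272), and 104 times in day 1 replicate 2 (438 CPM, 358 to 530.2). On day 3 it was counted 7 times (64.3 CPM, 25.9 to 132) and on day 6 38 times (235 CPM, 166 to 322). Both early libraries were above both late libraries, and the intervals of early and late libraries did not overlap. In 3 of the 4 tumor libraries 1 cell held many of these UMIs, namely 22 of 47, 24 of 104 and 20 of 38. To compare shares of cells with Wnt5a at equal depth, each cell was thinned to 1000 UMIs. The thinned share of CAF-like cells with Wnt5a was 50.0% (7 of 14; exact 95% binomial interval 23.0 to 77.0) and 38.5% (15 of 39; 23.4 to 55.4) early, 13.3% (4 of 30; 3.76 to 30.7) on day 3 and 15.7% (8 of 51; 7.02 to 28.6) on day 6, against 50.0%, 61.5%, 23.3% and 26.8% without thinning. Neutrophil-like cells, which should lack Wnt5a, had it in 0 thinned cells of each tumor library, which allows a share of up to 0.932% in the library with most of them (394 cells). Their median depth was 1419 to 2242 UMIs, against 2019.5 to 4479 UMIs in CAF-like cells.

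Among the CAF-like cells of all 4 tumor libraries, most Wnt5a UMIs lay in 1 of 4 sub-clusters. This sub-cluster of 31 cells is called CAF2-like after a fibroblast class of the study, since 7 markers of that class were at least 2-fold above the other CAF-like cells. The marker Mmp13, a collagenase, stood at 6509 CPM in it, against 112, 691 and 62.7 CPM in the other sub-clusters of 49, 37 and 22 cells. Other markers differed from that class: the CAF2 marker Col1a1 was at 2742 CPM, against 4594, 1108 and 3742 CPM, and Pdgfrb, a marker of the class CAF1, was at 405 CPM, against 202, 24.1 and 233 CPM. Leading genes of the 49 cells included immunoglobulin and hemoglobin genes (Igha, Jchain, Hbb-bs) beside the fibroblast genes Mfap4 and Pi16, and those of the 37 cells included genes of epithelium (Aqp3, Krt17, Gpx2). The part of these genes in the values was not tested.

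The CAF2-like sub-cluster held 151 Wnt5a UMIs (650.1 CPM, 551 to 762), and the other sub-clusters held 13, 16 and 16 (146, 128 and 143 CPM). Each sub-cluster drew most of its cells from 1 library, and the CAF2-like one had 25 of its 31 cells from day 1 replicate 2. Within that library it stood at 505 CPM (409 to 616), and the others at 274 (56.5 to 800.3), 204 (42.1 to 596) and 50.5 CPM (1.28 to 282). The first pair of these intervals overlapped that of the CAF2-like cells and the last did not. In day 1 replicate 1, the 4 CAF2-like cells stood at 1438 CPM (990 to 2019), with an interval that overlapped that of the 4 cells of the sub-cluster led by Aqp3 and Krt17 (977 CPM, 393 to 2012). On day 3, 6 of 7 Wnt5a UMIs lay in that same sub-cluster, which held 27 of the 30 cells, and on day 6 the sub-clusters of 40 and 15 cells stood at 125 and 118 CPM. Sfrp1 had 0 UMIs in the CAF2-like sub-cluster (up to 15.9 CPM) and was at 528, 128 and 224 CPM in the others. Within day 1 replicate 2, Sfrp1 was counted 0 times in 25 CAF2-like cells (up to 19.2 CPM) and 2, 0 and 0 times in the others. The 2 UMIs gave 183 CPM (22.1 to 659) in 5 cells, an interval that did not overlap that of the CAF2-like cells. The sub-clusters with 0 UMIs allowed up to 251 and 186 CPM and were not distinguishable from the CAF2-like cells. Cells with a UMI of both Wnt5a and Sfrp1 numbered 1 of 14, 0 of 39, 1 of 30 and 2 of 56 in the 4 libraries.

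Squamous-like epithelial cells, which express the keratins and Trp63 of stratified epithelium, were the other tumor type with many Wnt5a UMIs. Their level was 35.4 and 88.2 CPM in the early libraries (13 and 91 UMIs) and 16.9 and 23.3 CPM on days 3 and 6 (20 and 107 UMIs). The level was lower than in CAF-like cells of the same library in all 4. On day 3 the intervals overlapped (10.3 to 26.1 CPM in squamous-like and 25.9 to 132.5 CPM in CAF-like cells). The squamous-like interval of day 3 also held the neutrophil-like level of 14.2 CPM, so that level was not distinguishable from background. Lymphatic endothelial-like cells of day 3 stood at 27.5 CPM (5.67 to 80.3) on 3 UMIs. Squamous-like cells were many, and the share of all Wnt5a UMIs of a library found in them was 19.1% and 41.4% early. It was 47.6% on day 3 and 61.1% on day 6. The share found in CAF-like cells was 69.1%, 47.3%, 16.7% and 21.7%. In day 1 replicate 2, the squamous cluster led by Trp63 and Col17a1, which mark basal cells, held Wnt5a at 135 CPM (104 to 173), above the cluster led by Ltf and Psca (51.8 CPM, 28.3 to 86.9) and the cluster with most cells of this library (122 cells; 46.2 CPM, 24.6 to 78.9). On day 6 the same Trp63 cluster was at 38.0 CPM (30.0 to 47.5), above the Ltf cluster (10.8 CPM, 6.99 to 15.9), and a cluster led by Calm4 and Krt10 was at 19.9 CPM with an interval (6.46 to 46.4) that overlapped both. In day 1 replicate 1 the Trp63 and Ltf clusters were not distinguishable (40.3 and 36.3 CPM, from 6 and 3 UMIs), and on day 3 they had 3 and 5 cells and 0 Wnt5a UMIs, while all 20 UMIs lay in a cluster led by Cfap53 and Dmkn. In columnar tumor cells Wnt5a was at 0, 0.841, 1.91 and 2.63 CPM. That is no higher than in neutrophil-like cells of the same library in 3 of 4 libraries (5.89, 6.32 and 14.2 CPM, with a count of 0 on day 6), so columnar Wnt5a was not distinguishable from background.

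In normal stroma, telocyte-like cells held 316 of 384 Wnt5a UMIs (82.3%), at 1225 CPM (1094 to 1368). Wnt5a was found in 57.3% of 89 thinned telocyte-like cells (46.4 to 67.7) and in 0.312% of 321 thinned columnar cells, whose median depth was 6025.5 UMIs against 2131 UMIs. Glial-like, pericyte-like and lymphatic endothelial-like cells followed at 102, 101 and 54.1 CPM, with intervals that overlapped each other and rested on 5, 7 and 3 UMIs. Fibroblast-like cells stood at 44.8 CPM (31.0 to 62.6). Set side by side and untested, tumor CAF-like cells ranged from 64.3 to 957 CPM. Their day 3 interval overlapped that of normal fibroblast-like cells, and their day 1 replicate 1 interval overlapped that of telocyte-like cells. The telocyte marker Foxl1 was counted 2, 7, 1 and 2 times in the CAF-like cells of the 4 tumor libraries.

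**Figure D2:**
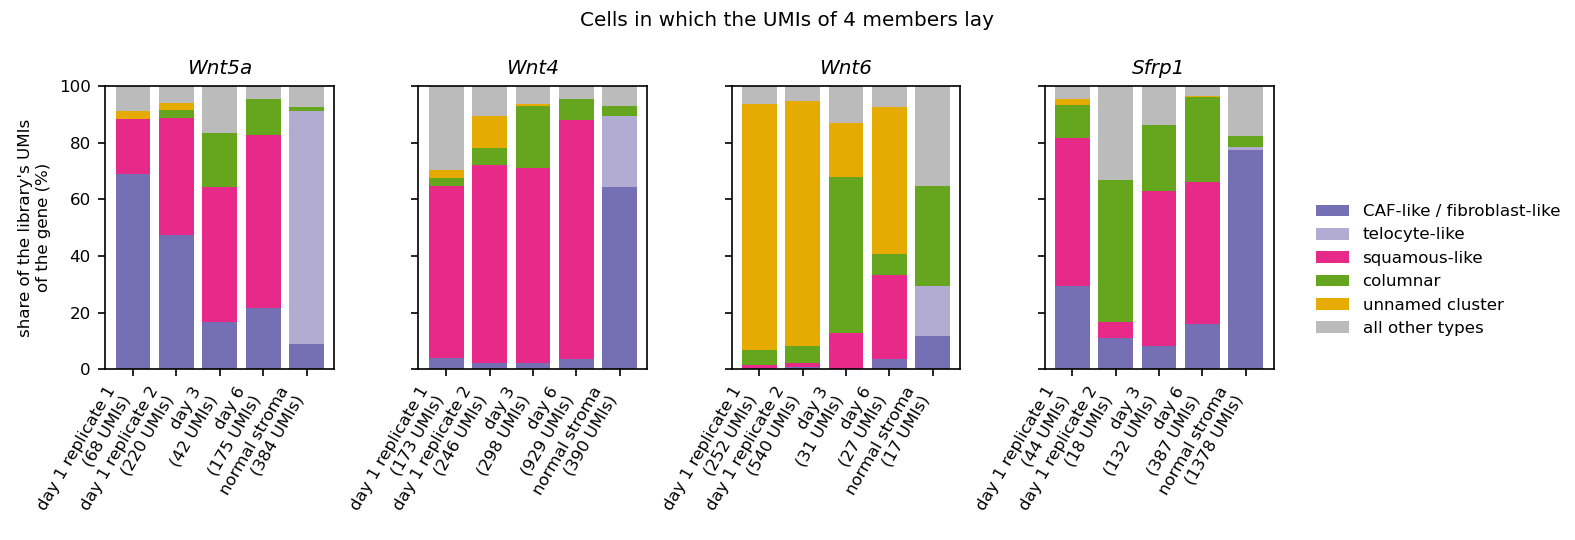
Share of each library's UMIs of Wnt5a, Wnt4, Wnt6 and Sfrp1 (percent, bars sum to 100) by cell type, with the library's total UMIs of the gene in parentheses. Squamous-like cells held most Wnt4 UMIs in all 4 tumor libraries, and the unnamed cluster held most Wnt6 UMIs in the early libraries and on day 6.

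Wnt4 is a ligand used in the development of the kidney and female reproductive tract. Most of its UMIs lay in squamous-like cells in the tumors, and in fibroblast-like and telocyte-like cells in normal stroma. Squamous-like cells held 105 UMIs at 286 CPM (234 to 347) in day 1 replicate 1, 171 UMIs at 166 CPM (142 to 193) in day 1 replicate 2, 205 UMIs at 173 CPM (150.3 to 199) on day 3 and 786 UMIs at 171 CPM (159 to 183) on day 6. The last 3 libraries were close together, and day 1 replicate 1 stood above them without overlap of the intervals. These cells held 60.7%, 69.5%, 68.8% and 84.6% of all Wnt4 UMIs of the library. Thinned to 1000 UMIs, 23.1%, 13.8%, 18.0% and 15.9% of squamous-like cells had Wnt4, against 0%, 1.27%, 3.57% and 0% of neutrophil-like cells. The unthinned shares were 53.8%, 37.8%, 44.9% and 53.1% at median depths of 4954, 2532.5, 3218 and 5685 UMIs. Over the 4 libraries together, Wnt4 was spread over the squamous clusters, with 119 CPM (83.9 to 164) in the lowest and 196 CPM (172 to 222) in the highest of the 5. Columnar tumor cells were far lower at 4.10, 2.10, 15.5 and 7.91 CPM.

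CAF-like cells also held Wnt4, at 142 and 25.2 CPM early, 64.3 CPM on day 3 and 204 CPM on day 6, with 7, 6, 7 and 33 UMIs. The intervals of CAF-like and squamous-like cells overlapped on day 6 and in day 1 replicate 1 (57.3 to 294 CPM in CAF-like cells). In day 1 replicate 2 and on day 3 CAF-like cells were below squamous-like cells. Enteroendocrine-like cells of day 1 replicate 1 reached 289 CPM, but all 39 UMIs lay in 1 of 11 cells. In normal stroma, Wnt4 stood at 380.0 CPM (308 to 463) in telocyte-like cells and at 331 CPM (291 to 374) in fibroblast-like cells, 2 levels that were not distinguishable, and at 4.49 CPM in columnar cells. The thinned shares were 30.3% and 21.2% in these stromal types and 0.623% in columnar cells. The fibroblast-like cells were not uniform: a cluster led by Eln and C4b held 184 UMIs (404 CPM), a cluster led by Igfbp3 and Fbln1 held 67 (398 CPM), and a cluster of 40 cells led by Cilp, Inmt and Pi16 held 0 Wnt4 UMIs, which allows up to 27.4 CPM. Normal stroma contained no squamous-like cluster, so the squamous level has no normal counterpart here.

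Wnt6, a ligand of the ectoderm and developing epithelia, was concentrated in the unnamed tumor cluster. The cluster held 219 UMIs at 115 CPM (101 to 132) and 467 UMIs at 111 CPM (101 to 121) in the early libraries, 6 UMIs at 44.6 CPM (16.4 to 97.1) on day 3 and 14 UMIs at 80.1 CPM (43.8 to 134) on day 6. The early libraries matched each other, and the day 3 level was below both without overlap, on 23 cells. It was in 45.8% and 40.0% of the cluster's cells early, and in 11.0% and 6.58% after thinning, against 2.86% and 0.254% of thinned neutrophil-like cells. The depth of this cluster was high, at medians of 5934 to 9947 UMIs. The whole libraries held 252 and 540 Wnt6 UMIs early but 31 and 27 late, and the cluster itself had 155 and 365 cells early but 23 and 16 late. Whether fewer such cells were present or fewer were captured cannot be told apart here.

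The unnamed cluster also expressed genes that the WNT pathway is known to induce. Lgr5, an R-spondin receptor of stem cells, stood at 587, 476, 327 and 807 CPM in the 4 libraries, against 107, 104, 103 and 7.76 CPM in columnar tumor cells. The inhibitor Wif1, which binds WNT ligands, stood at 1395, 1197, 766 and 378 CPM against 119, 53.7, 68.8 and 1.43 CPM in columnar cells, and Notum, which removes the lipid from WNT ligands, at 558, 551, 893 and 389 CPM against 35.2, 53.6, 74.8 and 2.51 CPM. Lgr5, Wif1 and Notum were left out of the genes used for clustering, but other genes of the same cells were used. These contrasts describe the cluster and were not tested. Wnt10a, the neighbor of Wnt6, was present in the unnamed cluster at 118, 119, 179 and 120.1 CPM. Wnt10a was also at 70.9, 84.4, 59.2 and 74.8 CPM in squamous-like cells, where Wnt6 was at 8.18, 7.75, 3.38 and 1.74 CPM. Relative to the unnamed cluster of the same library, squamous-like cells were lower in both genes, by far more for Wnt6 than for Wnt10a. In normal stroma Wnt6 was counted 17 times in all and Wnt10a 3 times.

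**Figure D3:**
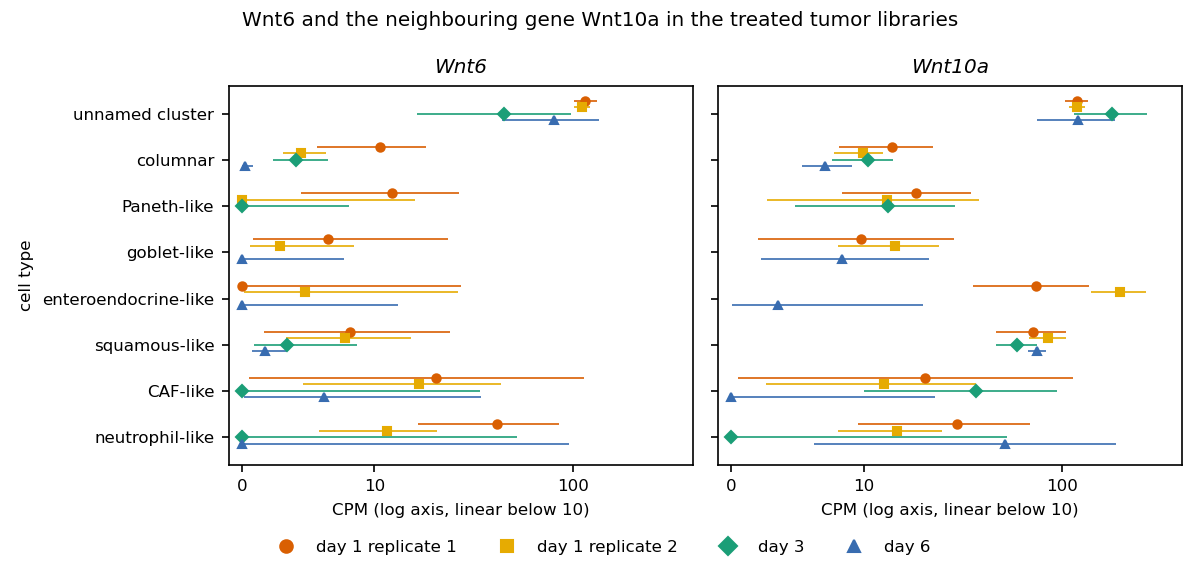
Wnt6 (left) and the downstream neighbor Wnt10a (right) in CPM (logarithmic axis, linear below 10) by cell type in the 4 tumor libraries, with exact 95% Poisson intervals. In the unnamed cluster Wnt6 was at 44.6 to 115 CPM and Wnt10a at 118 to 179 CPM, and in squamous-like cells Wnt6 was at 1.74 to 8.18 CPM and Wnt10a at 59.2 to 84.4 CPM.

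Wnt2b and Wnt11 were the ligands with the fewest UMIs, and Wnt2b showed no single tumor source. Wnt2b, a ligand of stromal cells that supports intestinal stem cells in culture, was counted 12, 70, 16 and 32 times in the tumor libraries, with at most 1 UMI of any CAF-like sum. In normal stroma, fibroblast-like cells held 19 of its 28 UMIs (25.0 CPM, 15.1 to 39.1), against 1.28 CPM in columnar cells. Wnt11, which acts in tissue movements of the embryo, was at 10.9, 18.4, 3.38 and 4.35 CPM in squamous-like cells. These cells held 4 of 10, 19 of 40, 4 of 8 and 20 of 26 Wnt11 UMIs of the tumor libraries. CAF-like cells of day 1 replicate 2 held 9 Wnt11 UMIs (37.9 CPM, 17.3 to 71.9), 8 of which lay in the CAF2-like sub-cluster. In normal fibroblast-like cells 6 of the 8 Wnt11 UMIs lay in the Pi16 cluster, the one without Wnt4.

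R-spondin UMIs were few in the tumors. Rspo1 was counted 1 time and 3 times in the early libraries and 0 times on day 6, and in normal stroma fibroblast-like cells held 5 of its 6 UMIs. Rspo3, a strong enhancer of WNT signals at the crypt base, had its tumor source in lymphatic endothelial-like cells. These held 11 of 17 UMIs in day 1 replicate 2 (64.7%; 48.0 CPM, 24.0 to 86.0), 1 of 2 on day 3 (9.16 CPM) and 19 of 26 on day 6 (73.1%; 86.5 CPM, 52.1 to 135), spread over 7, 1 and 14 cells. Only 3 such cells were found in day 1 replicate 1, with 0 Rspo3 UMIs. CAF-like cells had 0, 0, 0 and 1 UMIs. On day 6 that was 6.18 CPM with an interval below that of the lymphatic cells. The lymphatic level of day 3 rested on 1 UMI (0.232 to 51.0 CPM), so the CAF-like count of 0 was not distinguishable from it. Day 1 replicate 1 had only 14 CAF-like cells, too few to show absence. In thinned cells Rspo3 was in 8.11%, 3.85% and 11.1% of lymphatic endothelial-like cells and in 0% of neutrophil-like cells of the same libraries.

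In normal stroma Rspo3 came from several types. Myofibroblast-like cells held 26 UMIs (126 CPM, 82.5 to 185) in 8 cells, lymphatic endothelial-like cells 4 (72.1 CPM, 19.7 to 185), and fibroblast-like cells 28 (36.9 CPM, 24.5 to 53.4). The first 2 levels overlapped, as did the last 2. Telocyte-like cells, which carried most Wnt5a, had 0 Rspo3 UMIs in 98 cells, which allows up to 14.3 CPM. Lymphatic endothelial-like cells thus had Rspo3 UMIs in the normal library and in 3 tumor libraries.

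**Figure D4:**
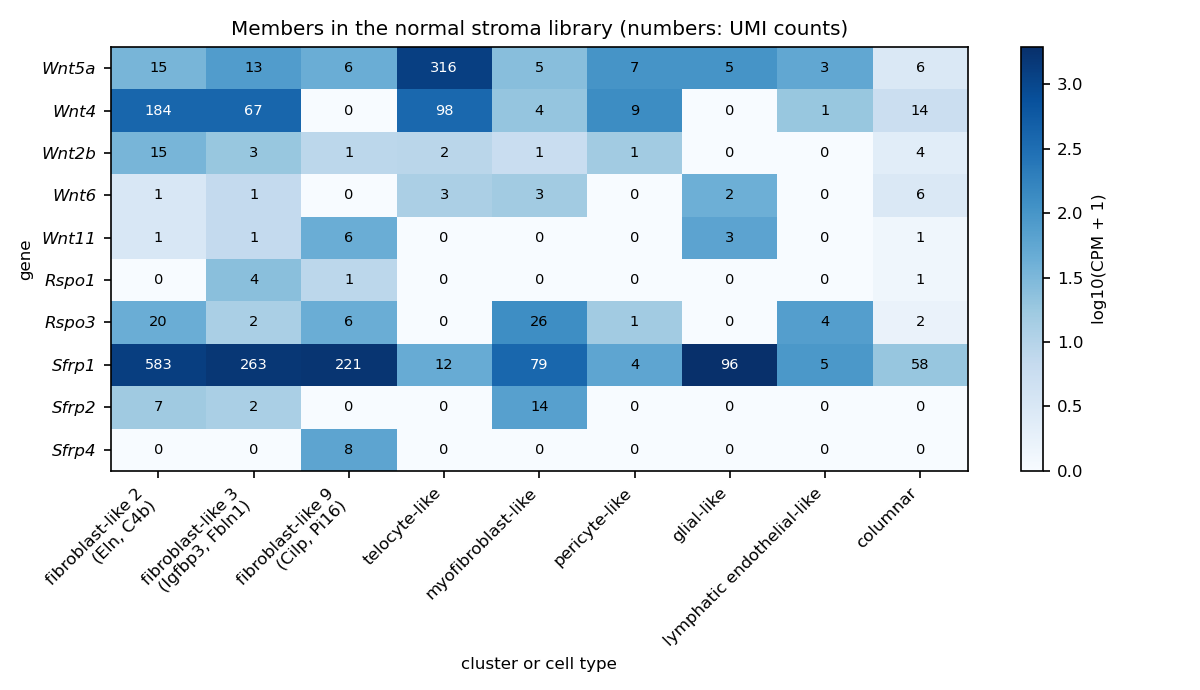
The 10 members in fibroblast-like clusters, other stromal types and columnar cells of the normal stroma library; color is log10(CPM + 1) and the printed numbers are UMI counts. Wnt5a was highest in telocyte-like cells, Wnt4 had 0 UMIs in the fibroblast-like cluster led by Cilp and Pi16, the 8 Sfrp4 UMIs lay in that cluster, and Sfrp1 was high in all 3 fibroblast-like clusters and in glial-like cells.

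Sfrp1, which binds WNT ligands, was the member with most UMIs in normal stroma, 1378 in all. Fibroblast-like cells held 1067 of them (1407 CPM, 1323 to 1494) and had Sfrp1 in 61.9% of 236 thinned cells. The level was 1280.4, 1562 and 1639 CPM in the 3 fibroblast-like clusters, so that the Pi16 cluster without Wnt4 was not low in Sfrp1. Glial-like cells, the supporting cells of the gut nerves, stood above the fibroblast-like cells at 1952 CPM (1582 to 2384), with 96 UMIs in 17 of 18 cells and a thinned share of 75.0%. Myofibroblast-like cells followed at 384 CPM (304 to 478), telocyte-like cells at 46.5 CPM and columnar cells at 18.6 CPM, with Sfrp1 in 1.56% of thinned columnar cells. Telocyte-like and fibroblast-like cells thus differed in opposite directions for Wnt5a and Sfrp1.

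Side by side and untested, Sfrp1 was lower in tumor CAF-like cells than in normal fibroblast-like cells, and it varied between libraries. Tumor and normal libraries also differed in dissociation and in chemotherapy. CAF-like cells held 13 UMIs in day 1 replicate 1 (265 CPM), all in 1 cell, 2 in day 1 replicate 2 (8.42 CPM, 1.02 to 30.4), 11 on day 3 (101 CPM, 50.5 to 181) and 62 on day 6 (383 CPM, 294 to 491). The day 6 library had Sfrp1 in 19 of 56 CAF-like cells and the others in 1 to 3 cells. Squamous-like cells stood at 62.7 and 0.970 CPM early and at 60.8 and 42.2 CPM late. The low value belonged to day 1 replicate 2 again, which had 18 Sfrp1 UMIs over all its cells. Of its 188 squamous-like cells, 1 had Sfrp1, and 122 lay in a cluster with 0 Sfrp1 UMIs. That cluster drew 122 of its 132 cells from this library, and its part in the low value was not tested. Columnar tumor cells had 4.10, 1.26, 7.41 and 13.8 CPM, and neutrophil-like cells 5.89, 4.21, 14.2 and 0 CPM.

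Sfrp2 and Sfrp4 had few UMIs in the tumor libraries. Sfrp2 was counted 2, 10, 1 and 5 times there, and in normal stroma 24 times. Of these 24, 14 were in myofibroblast-like cells (68.0 CPM, 37.2 to 114) and 10 of those in 1 cell. CAF-like cells held 4 of the tumor UMIs, at 0 to 40.7 CPM by library. Normal fibroblast-like cells stood at 11.9 CPM (5.43 to 22.5), which overlapped the CAF-like interval of each library with a UMI in these cells. Sfrp4 had 1 UMI in the 3 tumor libraries that list it, in a CAF-like cell of day 6. Its 8 UMIs of normal stroma all lay in 5 cells of the fibroblast-like cluster led by Cilp, Inmt and Pi16 (59.3 CPM, 25.6 to 117), against at most 8.10 CPM in the Eln cluster.

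To ask whether the members changed during the days after treatment, counts were summed per library and type and the late libraries were compared with the early ones (2 against 2) by the quasi-likelihood test of edgeR over all genes. No gene passed an adjusted p of 0.05 in CAF-like cells (0% of 3333 genes tested), columnar tumor cells (0% of 12806) or squamous-like cells (0% of 9783), where 269, 749 and 396 genes had an unadjusted p under 0.05 and DESeq2 called 11, 43 and 20 genes, none of them a member. So 0 of 3, 0 of 4 and 0 of 4 members that passed the filter on low counts were called in these types, and the other members were too low to test. In the unnamed cluster 2 of 10113 genes (0.0198%) passed, 614 had an unadjusted p under 0.05 and DESeq2 called 31, and the 1 member tested, Wnt6, was not among the edgeR calls. The study describes the libraries of each group as biological replicates, and the late pair differ in day, so the spread between late libraries includes any change from day 3 to day 6. Early and late also shared library structures, with 1 library of each made with a single and 1 with a dual index.

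In CAF-like cells, Wnt5a had a log2 change of -2.07 (SE 0.79), the largest in size of the 3 members tested there, with an unadjusted p of 0.0321 and an adjusted p of 0.584 in edgeR. Within single-index libraries the change was -3.78 and within dual-index libraries -0.82. Sfrp1 and Wnt4 had changes of 1.28 (SE 1.30) and 1.17 (SE 0.95), which were within the spread between libraries and differed in sign between the structures (-1.28 and 5.45 for Sfrp1, -1.03 and 3.05 for Wnt4). The median change of all genes tested was 0.0428 on the log2 scale. As given above, Krt5 and Hba-a1 in these sums differed between early and late libraries in opposite directions, and their part in the Wnt5a difference was not tested. The sub-clusters also differed between the groups, with 4 of 14 and 25 of 39 CAF-like cells in the CAF2-like sub-cluster early and 1 of 30 and 1 of 56 late, and their part was not tested either.

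In columnar tumor cells, Sfrp1 had a log2 change of 2.58 (SE 0.81), Wnt4 of 2.31 (SE 0.68) and Wnt5a of 2.11 (SE 0.97), and Wnt6 of -1.61 (SE 1.17). Both structures gave the same sign for each of the 4, from 0.86 and 3.00 for Sfrp1 and 1.84 and 1.81 for Wnt4 to -1.06 and -1.96 for Wnt6. All 4 had an adjusted p of 0.804 in edgeR and levels of at most 15.5 CPM, where neutrophil-like cells reached 16.8 CPM for Wnt4 and 14.2 CPM for Sfrp1. Different clusters made up the columnar class in each library, such as a cluster of 674 cells with 624 from day 3 and a cluster of 512 cells all from day 6. In squamous-like cells, Wnt5a had a change of -1.53 (SE 0.57; unadjusted p 0.0224) and Wnt11 of -1.81 (SE 0.75; unadjusted p 0.0368), and both were negative in each structure, but each adjusted p in edgeR was 0.998. Wnt4, with a change of -0.22 (SE 0.51), differed by less than its error, and Sfrp1 had a change of 1.10 (SE 1.05). The squamous clusters also differed, with 273 of 283 cells of day 3 in a cluster that held 2 cells of day 1 replicate 2. In the unnamed cluster, Wnt6 had a change of -0.78 (SE 0.46) with an adjusted p of 0.856 in edgeR.

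Whether the change itself differed between types was tested afterwards with each library as a block. Between CAF-like and columnar cells 18 of 10401 genes were called (0.173%), Wnt5a being the 1 member among them with a difference of -3.71 on the log2 scale (SE 0.81; adjusted p 0.0101 in edgeR). When the 2 columnar clusters with goblet or telocyte markers among their leading genes were left out, 21 of 10355 genes were called (0.203%) and Wnt5a was not (-3.36, adjusted p 0.0559). Between CAF-like and squamous-like cells 2 of 7500 genes were called (0.0267%), and between squamous-like and columnar cells 0 of 12572 (0%; 530 with an unadjusted p under 0.05), with no member among the calls. Without day 3 or without day 6, the last comparison called 309 (2.32%) and 141 (1.24%) genes, Wnt5a (-4.02, adjusted p 0.000125, and -3.75, adjusted p 0.0309, in edgeR) and Wnt4 (-2.13, 0.00895, and -2.83, 0.00114) among them, and without either early library it called 0.

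**Figure D5:**
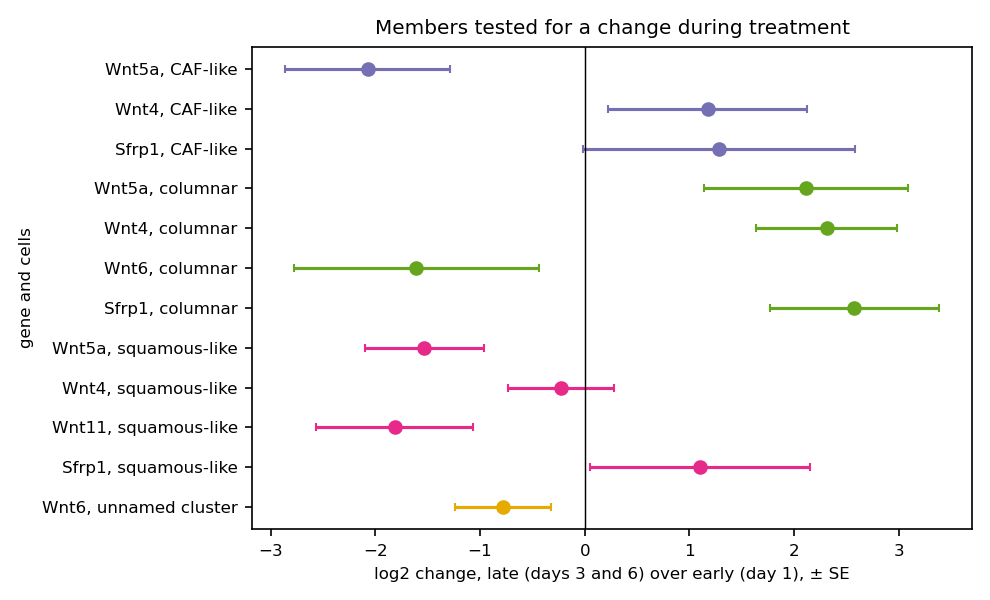
Log2 change of each tested member between late (days 3 and 6) and early (day 1) tumor libraries, by cell type; points are edgeR estimates from 2 against 2 libraries and bars are standard errors. Wnt5a was at -2.07 in CAF-like and -1.53 in squamous-like cells and at 2.11 in columnar cells, and no plotted change passed the adjusted threshold.

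Other genes of the pathway, 47 in 7 lists, gave 0 called genes in either direction in the CAF-like, columnar and squamous-like tests. Genes that did not pass the filter on low counts were not tested. In CAF-like cells 0 of 14 other ligands, 1 of 10 frizzled receptors and 0 of 5 R-spondin receptors and ligases passed it. In squamous-like cells these were 4 of 14, 6 of 10 and 5 of 5. In columnar cells, 4 of 14 other ligands, 4 of 8 other inhibitors, 2 of 2 secretion genes, 9 of 10 frizzled receptors, 6 of 6 other receptors and 5 of 5 R-spondin receptors and ligases passed the filter. Wls, which carries WNT ligands to the cell surface, was counted in the tumor cell types with most Wnt5a, Wnt4 and Wnt6, at 448, 311, 322 and 154 CPM in CAF-like cells, at 188, 206, 159 and 204 CPM in squamous-like cells and at 401, 392, 327 and 154 CPM in the unnamed cluster. In normal stroma it was at 337 CPM in telocyte-like, 352 CPM in fibroblast-like and 142 CPM in glial-like cells. Porcn, which attaches the lipid to WNT ligands, was at 27.3, 90.2, 39.7 and 42.0 CPM in squamous-like cells and at 0, 21.0, 36.8 and 12.4 CPM in CAF-like cells. Among other ligands, Wnt10a had 1674 UMIs in the tumor libraries, Wnt5b 554 and Wnt7b 493. Wnt7b was at 84.5, 52.4, 63.4 and 34.3 CPM in squamous-like cells, so that this type held Wnt4, Wnt7b and Wnt10a in each library. Rspo4 and Rspo2, the other R-spondins, had 18 and 14 UMIs. The inhibitors with most UMIs were Wif1 (9751), Dkk2 (9206) and Notum (4992). Of the receptors, Fzd5, Fzd1 and Fzd6 led the frizzled list with 1497, 1362 and 1121 UMIs, Ryk, Ptk7 and Lrp6 the other receptors with 5034, 3250 and 3187, and Rnf43, Znrf3 and Lgr5 the R-spondin receptors and ligases with 8748, 6073 and 5378.

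The genes whose tumor pattern was most like that of a member were found by Pearson's correlation of log2(CPM + 10) over 41 sums of a named type in a library, which share libraries and depth and are given as a description. For Wnt5a these were Tnc (r = 0.92), a matrix protein of wounds and tumors, Twist2 (0.91), a mesenchymal transcription factor, and Pdgfra (0.89), a growth factor receptor of fibroblasts. For Sfrp1 they were Lgi2 (0.85), Efs (0.84) and the collagen gene Col16a1 (0.82), and for Wnt4 P3h4 (0.79), the metallothionein Mt2 (0.77) and Chl1 (0.76). Wnt2b and Wnt6 had no gene above 0.63, with Pdp2, Atg14 and Arid4a at 0.63, 0.60 and 0.59 for Wnt2b and Cdk2, Notch2 and Dync1li1 at 0.61, 0.58 and 0.57 for Wnt6, and the unnamed cluster was not among the 41 sums.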

How the data were processed

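The authors aligned reads with dropEst to mouse GRCm38.85 and deposited raw UMI counts per gene and cell barcode, 1 matrix per library. Single-index and dual-index libraries were sequenced on different instruments, which can shift levels between libraries. The 10 members and all gene lists were chosen with earlier results of these data known. From the deposited counts, cells with at least 500 genes and at most 15% mitochondrial counts were kept. They were scaled to 10000, log-transformed with 1 added, and clustered in Python 3.11.15 on 2000 variable genes, separately for tumor and normal libraries. The members and the other 47 pathway genes were left out of the variable genes. Clustering used 20 components, 20 neighbors and Leiden resolution 1 with leidenalg 0.10.2.

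A cluster was named from the marker list with the highest mean fold when at least 3 markers reached 2-fold over the other cells in at least 10% of cells. The remaining clusters could be named columnar or squamous by a lower limit of 1.25-fold over non-epithelial cells. The second step and its limits were set with the clusters in view. Scrublet called 11 of 7396 tumor cells and 7 of 1095 normal cells as doublets, which did not work as a caller, and no doublets were removed. Levels are UMIs of a gene per 1000000 UMIs (CPM) over the cells of a type in a library. Exact Poisson and binomial (Clopper-Pearson) 95% intervals cover counting error only. Genes were ranked by UMI totals as a description only. These ranks were not read as differences in level between genes, since transcript ends are captured unequally. For shares, each cell was thinned to 1000 UMIs and shallower cells were left out.

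Late and early libraries were compared with edgeR 4.0.16 in R 4.3.3 (TMM, filterByExpr, quasi-likelihood, two-sided, Benjamini-Hochberg over all genes), on sums of at least 10 cells, with DESeq2 1.42.0 as an alternative. The tests were checked on simulated counts in which 200 genes were shifted by a log2 change of 2. The dispersion was set to 0.05 for every gene and was not estimated from these libraries. The shares found therefore do not give the power of the tests on the real counts. In CAF-like sums 126 of the 170 shifted genes that passed the filter were found, with 1 false call, in columnar sums 181 of 192 with 11, and in squamous-like sums 170 of 184 with 7. All members were named, as were genes of the pathway lists that passed a test, up to 3 per list by tumor UMIs, and the 3 genes most like each member with at least 100 tumor UMIs. Markers, Wnt7b, Wls and Porcn levels by type and genes leading clusters were added for description. RefSeq promoter entries matched 6 of the 10 members.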

Additional observations from a re-analysis of the deposited data

Results flagged for a closer look

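The Wnt5a change between early and late libraries differed between CAF-like and columnar tumor cells in a test added after the data were seen, with each library as a block. The late-minus-early log2 change in CAF-like cells minus that in columnar cells was -3.71 (SE 0.81; adjusted p 0.0101 in edgeR). Wnt5a stood at 957, 438, 64.3 and 235 CPM in CAF-like cells and at 0, 0.841, 1.91 and 2.63 CPM in columnar cells, where its level was not distinguishable from background. The call was lost when either early library was left out (-3.20, adjusted p 0.158, without replicate 1 and -7.96, adjusted p 0.151, without replicate 2), and without the 2 columnar clusters named above. It remained without the day 3 library (-3.16, adjusted p 0.0297) or the day 6 library (-4.56, adjusted p 0.0197). The same difference between squamous-like and columnar cells was -3.91 with an adjusted p of 0.297. It passed without the day 3 library (-4.02, adjusted p 0.000125) or the day 6 library (-3.75, adjusted p 0.0309), and did not without early replicate 1 (-3.81, adjusted p 0.446) or 2 (-6.55, adjusted p 1).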

How the results depend on the processing

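Under the alternatives, edgeR's 0 calls in CAF-like cells became 11 with DESeq2, 44 without a filter on low counts and 3 to 175 when 1 library was left out. In columnar cells they became 43, 234 and 0 to 724, and 2 with the day as a number. In squamous-like cells they became 20, 100 and 10 to 104, and 41 with library structure as a block. In the unnamed cluster the 2 calls became 31 with DESeq2, 8 to 49 when 1 library was left out and 65 with the block. Of 142 alternative values for member changes, 3 reversed: Sfrp1 at -0.017 in CAF-like and -0.089 in squamous-like cells without early replicate 2, and Wnt4 at 0.14 in squamous-like cells without early replicate 1. Over the libraries left out, these changes ranged from -0.017 to 4.86, -0.089 to 5.74 and -0.54 to 0.14. Within single types, a member passed the threshold in 4: Wnt5a in CAF-like cells (-3.31, adjusted p 0.0106) without late replicate 2, Sfrp1 (3.13, 0.00809) and Wnt6 (-4.40, 0.0227) in columnar cells without late replicate 1, and Sfrp1 in squamous-like cells (5.74, 0.00673) without early replicate 1. The Wnt5a difference of -3.71 ranged from -7.96 to -3.16 when 1 library was left out and was -3.36 without the 2 columnar clusters. That between squamous-like and columnar cells (-3.91) ranged from -6.55 to -3.75. That between CAF-like and squamous-like cells (-0.43) ranged from -1.82 to 0.58 and reversed without early replicate 1 (0.58) and without late replicate 1 (0.17). The Wnt4 difference between CAF-like and columnar cells (-0.79) ranged from -2.27 to 0.37 and reversed without late replicate 1. With 1 library left out, the genes called in these 3 comparisons numbered 1 to 97, 0 to 309 and 0 to 66, and the first gave 21 without the 2 columnar clusters. The cause of these shifts was not tested. Counts of members highest in a mesenchymal type stayed within 1.5 times. Of 244 alternative levels, 7 left the main interval, 6 of them without the cells of highest Scrublet score, and 45 of 61 shares did so unthinned. No paired analysis by replicate number was possible because the labels number the early libraries only. The fit with library structure as a block, which pairs 1 library of each group, changed no member's call.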
